A study of Mus musculus with 6 samples.

Results

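The 10 genes described here mark the liver-resident branch of NK cells and group 1 innate lymphoid cells (ILC1) in mice: Itga1, Cxcr6, Tnfsf10, Cd200r1, Il7r, Rora, Zfp683, Ahr, Tmem176a and Tmem176b. They were chosen by symbol, all 10 were found among the 57180 genes of the deposited count table, and all 10 had enough counts to be tested. RNA was sequenced from CD36+ NK and CD36- NK cells, with 3 libraries in each group, sorted from livers of male C57BL/6J mice aged 6 to 8 weeks. All mice had been given CCl4, a hepatotoxin that causes fibrosis, at 2.5 ml/kg of a 20% solution in olive oil by 2 intraperitoneal injections per week for 4 weeks, and were killed 48 h after the last dose. The paper gives a gate of live CD3- NK1.1+ lymphocytes for its flow cytometry and does not restate it for the sequenced sort. The sequenced cells were split on CD36, a scavenger receptor that takes up long-chain fatty acids. The library names of the samples titled CD36+ NK read as CD36-, the opposite sign. Those of the samples titled CD36- NK hold a single hyphen between CD36 and NK, as their titles do. The titles were followed. The gate given does not separate conventional from liver-resident NK cells. Neither the labels nor the paper's text state how many mice gave a library, so the p-values measure the spread between these samples, which may be technical.

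Liver NK1.1+ cells hold conventional NK cells, which circulate and depend on Eomes, and resident cells, which stay in the sinusoids. The resident cells carry the collagen-binding integrin CD49a, encoded by Itga1, and the chemokine receptor CXCR6, whose ligand CXCL16 is displayed by sinusoidal cells. They also carry the death ligand TRAIL, encoded by Tnfsf10, the inhibitory receptor CD200R1 and, on a portion of the cells, the interleukin-7 receptor. Hobit, encoded by Zfp683, RORα and the aryl hydrocarbon receptor are transcription factors of tissue-resident lymphocytes.

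The labelled sort was checked first. Cd36 was present at 110, 263 and 238 CPM (counts scaled to library size with TMM factors) in CD36+ NK replicates 1 to 3 and at 14.3, 31.7 and 17.1 CPM in CD36- NK replicates 1 to 3. Klrb1c, which encodes the NK1.1 antigen of the gate, was at 83.1, 105.7 and 77.9 CPM in CD36+ NK and at 495, 448 and 524 CPM in CD36- NK. It was called lower in CD36+ NK, with a log2 fold change of -2.46 ± 0.14 (SE, n = 3 per group; edgeR quasi-likelihood test, Benjamini-Hochberg adjusted p = 0.00043), and the other 13 of 14 genes shared by NK cells and ILC1 were called lower too. A smaller share of NK cells in a library and less of this RNA per cell cannot be told apart in bulk samples. Each member is therefore given on the CPM scale and also relative to Klrb1c. Marker lists of other cell types moved with the groups: the summed level of 10 macrophage genes ran from 2251 to 5584 CPM in CD36+ NK and from 364 to 1366 CPM in CD36- NK, and that of 8 B cell genes from 11668 to 13441 CPM and from 7156 to 9378 CPM. The other way, the sum of 8 dendritic cell genes ran from 303 to 364 CPM in CD36+ NK and from 477 to 659 CPM in CD36- NK, although 5 of the 8 had estimates above 0 and the list's median was 0.41 on the log2 scale, and that of 8 monocyte genes ran from 1111 to 1999 CPM and from 1606 to 2529 CPM, with overlap. CD36+ NK replicate 1 stood apart in T cell genes, with 303 counts of Cd3e against 1 to 12 in the other 5 libraries.

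Tmem176a and Tmem176b are the members that lie side by side. They encode related membrane proteins that act as ion channels in innate lymphoid and myeloid cells. The table places Tmem176b at chr6:48810752-48818430 on the minus strand and Tmem176a at chr6:48817853-48824005 on the plus strand, and the genes share 578 bases. Whether the counting used strand is not given in the sources used here, so reads from the shared bases may not be told apart. In RefSeq annotation of GRCm38.p6, 1 annotated start of each gene faces away from the other across a stretch of 108 bases, chr6:48841375-48841482 on the plus strand, which is 63.9% G and C. It is shown because a single stretch lies upstream of both members, with the ETS-family core AGGAAGT in capitals.
Tmem176b-Tmem176a: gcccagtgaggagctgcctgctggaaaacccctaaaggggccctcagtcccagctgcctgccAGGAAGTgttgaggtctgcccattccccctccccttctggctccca

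Promoter windows of 300 bases, from 250 before to 50 after the start, were found for 7 members and not for Ahr, Zfp683 or Cd200r1. On both strands, the core of the aryl hydrocarbon receptor element, GCGTG, was in the window of 1 member (Rora) and in 35.2% of all genes with a window. The core of the ROR element, AGGTCA, was in 1 (Tnfsf10) and in 18.1% of all genes. The core of the T-box element, TCACAC, was in 3 (Tmem176a, Tmem176b, Il7r) and in 16.4%. The ETS core, whose letters were picked after the stretch above had been read, was in 4 (Tmem176a, Tmem176b, Itga1, Il7r) and in 10.7%. These are matches of letters, and the windows of the Tmem176 genes overlap, so that 1 T-box match and 1 ETS match are each counted for both genes.

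On the CPM scale, 1 of the 10 members was called lower in CD36+ NK and none was called higher, where a call is an adjusted p below 0.05 with a fold change above 2. Of all 14761 genes tested, 2.98% were called lower and 2.98% higher, 5.96% in either direction. At an unadjusted p below 0.05, 4 members were lower and 0 higher, against 12.1% and 14.2% of all genes. DESeq2, which called 1143 of the 14761 genes in either direction against 880 by edgeR, also called 1 member lower and 0 higher. The median log2 fold change was -0.44 over the members and 0.01 over all tested genes. Without the fold threshold, 3 members were lower (Itga1, Tnfsf10, Rora) and 0 higher, as were 5.44% of all genes in the lower direction. All 3 CD36+ NK libraries lay below all 3 CD36- NK libraries for 4 members (Itga1, Tnfsf10, Rora, Zfp683), as for 15.7% of all genes, and above them for 1 (Ahr), as for 17% of all genes.

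**Figure D1:**
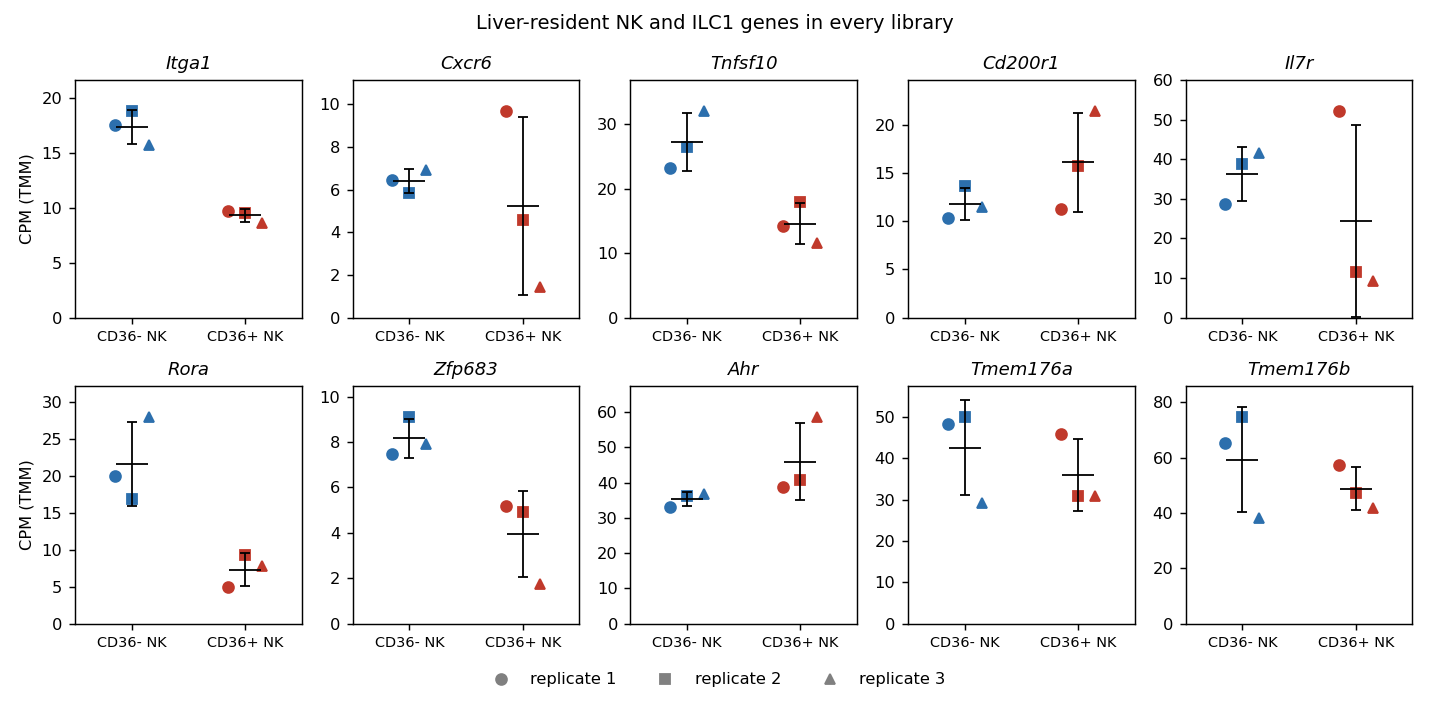
Level of each of the 10 members in CPM (vertical axes, each from 0) in CD36- NK (blue) and CD36+ NK (red), with 1 symbol per library and bars for the mean ± SD of 3. The groups are apart for Itga1, Tnfsf10, Rora and Zfp683, which are lower in CD36+ NK, and for Ahr, which is higher; Il7r and Cxcr6 each have their highest value in CD36+ NK replicate 1.

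Among the surface receptors and ligands, Itga1 (chr13:115089632-115238500) had the smallest standard error. Itga1 was at 9.70, 9.56 and 8.65 CPM in CD36+ NK replicates 1 to 3 and at 17.5, 18.8 and 15.7 CPM in CD36- NK replicates 1 to 3. The groups did not overlap, and the coefficient of variation was 6.17% in CD36+ NK and 8.99% in CD36- NK. The log2 fold change was -0.90 ± 0.14 (SE; edgeR adjusted p = 0.00996), a difference larger than the spread between replicates but under the 2-fold threshold.

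Tnfsf10 (chr3:27371177-27396576), whose product TRAIL lets resident cells kill targets that bear its death receptor, was at 14.2, 17.95 and 11.6 CPM in CD36+ NK. In CD36- NK it was at 23.2, 26.4 and 32.1 CPM, so that every CD36- NK library was above every CD36+ NK library. Its log2 fold change was -0.90 ± 0.20 (SE; edgeR adjusted p = 0.0345), again under the fold threshold. Without CD36+ NK replicate 2 it was -1.08 (edgeR adjusted p = 0.0465) and was called. Leaving out any other library took its adjusted p above 0.05 (edgeR, 0.0581 to 0.108), as did the replicate block (0.0744).

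Cd200r1 (chr16:44586099-44615341), an inhibitory receptor that myeloid cells also carry, was at 11.2, 15.7 and 21.4 CPM in CD36+ NK and at 10.3, 13.6 and 11.4 CPM in CD36- NK. The groups overlapped, with CD36+ NK replicate 1 inside the range of CD36- NK. The log2 difference was 0.45 ± 0.25 (SE; edgeR adjusted p = 0.306), with a 95% interval from -0.13 to 1.04. Without CD36+ NK replicate 3 it was 0.19 (edgeR adjusted p = 0.696). The summed macrophage genes were at 2251, 3500 and 5584 CPM in CD36+ NK and at 553, 1366 and 364 CPM in CD36- NK, which is the order of Cd200r1 within CD36+ NK but not within CD36- NK; their part in the result was not tested.

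Il7r (chr15:9505874-9530262), the interleukin-7 receptor chain that T cells also carry, was the member with the widest spread in CD36+ NK. It was at 52.2, 11.6 and 9.15 CPM in CD36+ NK and at 28.7, 38.8 and 41.6 CPM in CD36- NK. CD36+ NK replicate 1 was above every other library and the other two CD36+ NK libraries were below every other, with a coefficient of variation of 99.6% in CD36+ NK and 18.7% in CD36- NK. On the log2 scale the difference was -0.59 ± 0.62 (SE; edgeR adjusted p = 0.618), with a 95% interval from -2.05 to 0.88. Without CD36+ NK replicate 1, it was -1.82 ± 0.22 (SE; edgeR adjusted p = 0.00653) and was called lower, while it was -0.24 without CD36+ NK replicate 2 (edgeR adjusted p = 0.870) and -0.19 without CD36+ NK replicate 3 (0.899).

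Cxcr6 (chr9:123635540-123640825), the receptor for CXCL16, was at 9.70, 4.56 and 1.41 CPM in CD36+ NK and at 6.46, 5.84 and 6.93 CPM in CD36- NK. The lowest of these rests on 17 counts. The CD36- NK libraries were close, with a coefficient of variation of 8.60%, while the CD36+ NK libraries lay on both sides of them at 80.1%. This gave a log2 fold change of -0.30 ± 0.57 (SE; edgeR adjusted p = 0.796), with a 95% interval from -1.64 to 1.04. It was -1.096 without CD36+ NK replicate 1 (edgeR adjusted p = 0.190), and its direction turned without CD36+ NK replicate 3, to 0.15 (edgeR adjusted p = 0.864).

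T cell genes stood beside Il7r and Cxcr6 in CD36+ NK replicate 1. The summed level of 12 T cell genes was 517, 75.9 and 91.7 CPM in CD36+ NK replicates 1 to 3 and from 208 to 342 CPM in CD36- NK, and 10 of the 12 were highest in CD36+ NK replicate 1. Cd8b1, a chain of the CD8 co-receptor, was at 41.6 CPM there and at 0.515 and 1.08 CPM in the other two CD36+ NK libraries. Il7r and Cxcr6 were the 2 of 10 members with their highest level in that library. The part of T cell RNA in their values was not tested.

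**Figure D2:**
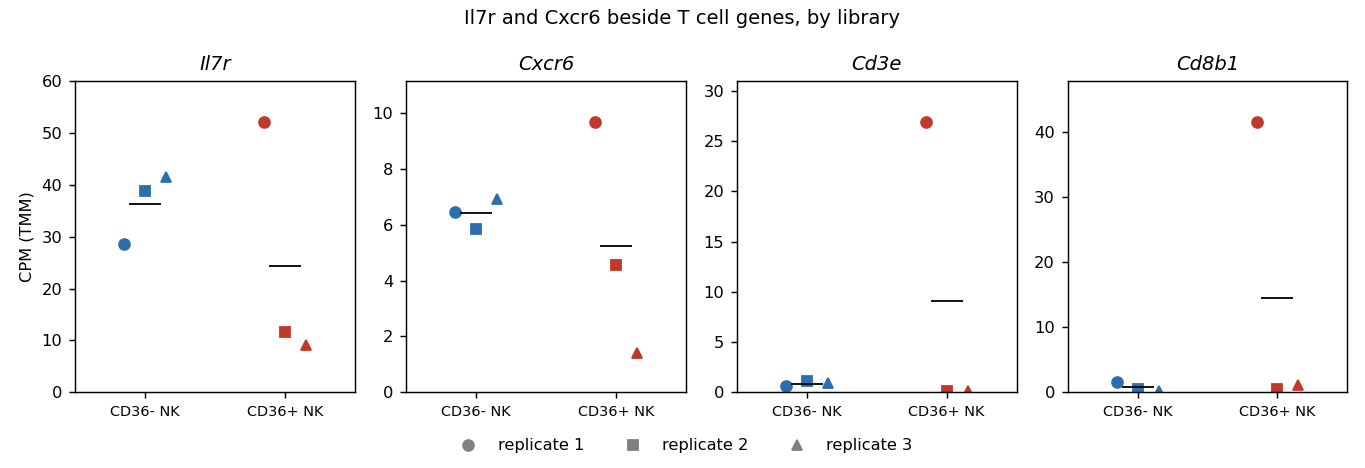
Levels of Il7r and Cxcr6 beside the T cell genes Cd3e and Cd8b1 in CPM (vertical axes, each from 0), with 1 symbol per library and a line at the mean of 3. All 4 genes are highest in CD36+ NK replicate 1, where Cd3e is at 27.0 CPM against 0.0831 to 1.06 CPM in the other 5 libraries.

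Of the transcription factors, Rora (chr9:68561068-69295528) was the called member. RORα is needed for group 2 innate lymphoid cells and is also found in ILC1. It was at 4.90, 9.27 and 7.73 CPM in CD36+ NK and at 19.9, 16.9 and 27.9 CPM in CD36- NK, so that the groups did not overlap. The log2 fold change was -1.56 ± 0.28 (SE; edgeR adjusted p = 0.0182), with a 95% interval from -2.22 to -0.89. It stayed negative under all 14 alternatives, from -1.77 to -1.34, and kept its call in 10; the call was lost without CD36+ NK replicate 3 (edgeR adjusted p = 0.0683), without CD36- NK replicate 1 (0.0549), without CD36- NK replicate 3 (0.0537) and without both replicate 1 libraries (0.0816).

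Zfp683 (chr4:133781149-133786307), which encodes Hobit, was at 5.16, 4.93 and 1.75 CPM in CD36+ NK and at 7.46, 9.11 and 7.91 CPM in CD36- NK. The groups did not overlap, but the lowest library held 21 counts. Its log2 fold change was -1.04 ± 0.38 (SE; edgeR adjusted p = 0.131), which did not pass the test, with a 95% interval from -1.94 to -0.15, and it was -0.69 without CD36+ NK replicate 3.

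Ahr (chr12:35547973-35585037), the ligand-activated receptor for aryl hydrocarbons, was at 38.6, 40.6 and 58.6 CPM in CD36+ NK and at 33.2, 36.1 and 36.8 CPM in CD36- NK. The lowest CD36+ NK library was above the highest CD36- NK library by a margin smaller than the SD within CD36+ NK. The log2 fold change was 0.38 ± 0.17 (SE; edgeR adjusted p = 0.216), with a 95% interval from -0.02 to 0.78, and Ahr did not pass the test. Without CD36+ NK replicate 3 it was 0.17 (edgeR adjusted p = 0.503). Its highest library, CD36+ NK replicate 3, was also the highest in summed macrophage genes, while within CD36- NK the library highest in Ahr, replicate 3, was the lowest in them; macrophages carry the receptor too, and their part in the result was not tested.

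Tmem176b was at 57.3, 47.4 and 41.7 CPM in CD36+ NK and at 65.1, 74.7 and 38.1 CPM in CD36- NK. Tmem176a was at 46.0, 30.9 and 31.0 CPM in CD36+ NK and at 48.4, 50.04 and 29.3 CPM in CD36- NK. For both genes CD36- NK replicate 3 was below every other library, and the groups overlapped. The log2 fold changes were -0.28 ± 0.25 for Tmem176b (SE; edgeR adjusted p = 0.538) and -0.25 ± 0.25 for Tmem176a (SE; edgeR adjusted p = 0.595), with 95% intervals from -0.87 to 0.30 and from -0.82 to 0.33. With 1 library left out in turn, Tmem176b ran from -0.52 (without CD36- NK replicate 3) to -0.08 (without CD36- NK replicate 2) and Tmem176a from -0.47 (without CD36+ NK replicate 1) to -0.11 (without CD36- NK replicate 2), with no call. The ratio of their authors' FPKM values, Tmem176a over Tmem176b, kept between 0.561 and 0.691 over the 6 libraries. The summed monocyte genes were at 1999, 1356 and 1111 CPM in CD36+ NK and at 2529, 2412 and 1606 CPM in CD36- NK. This is the order of Tmem176b within CD36+ NK, and CD36- NK replicate 3 was the lowest of its group in both. The part of myeloid RNA in the values of the Tmem176 genes was not tested.

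**Figure D3:**
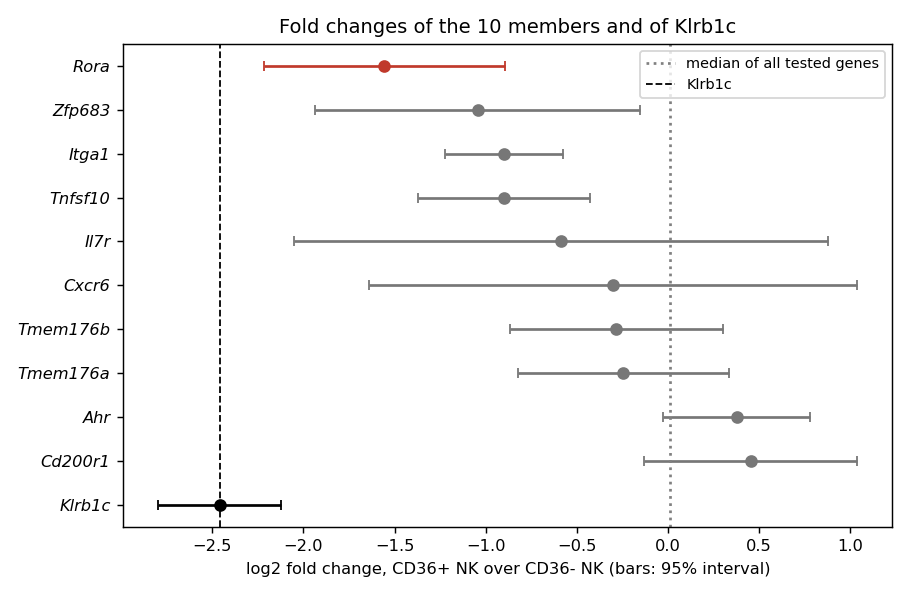
Log2 fold change of each member and of Klrb1c, CD36+ NK over CD36- NK (horizontal axis), with 95% intervals from edgeR; red marks the called member, and lines mark the median of all tested genes (0.01) and Klrb1c (-2.46). Rora is lowest of the members at -1.56 and Cd200r1 highest at 0.45, and all 10 estimates lie to the right of Klrb1c.

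Relative to Klrb1c, all 10 members had estimates above 0, against 2 of 10 (Cd200r1 and Ahr) on the CPM scale. With the Klrb1c count of each library as its scale, 9 of 10 members were called higher in CD36+ NK and 0 lower. This scale placed nearly every gene there: 97.3% of 14760 genes were called higher and 0.00678% lower, and the median over all genes was 2.49 on the log2 scale against 2.05 over the members. The members' count is close to this background, since the scale adds the difference in Klrb1c to every gene. Within the members, the order of the estimates was that of the CPM scale, except that Itga1 and Tnfsf10 exchanged places.

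Rora was the member that was not called on this scale. Its counts were 5.89, 8.77 and 9.93% of the Klrb1c counts in CD36+ NK and 4.02, 3.77 and 5.33% in CD36- NK, so that the groups did not overlap. Its difference on this scale was 0.91 ± 0.28 (log2, SE; edgeR adjusted p = 0.00728), under the fold threshold. It was called without CD36+ NK replicate 1 (1.09), without CD36- NK replicate 3 (1.07) and without both replicate 1 libraries (1.04). Rora was thus lower in CPM and higher against Klrb1c, by less than any other member. It also lay below the median of all genes on this scale, 2.49.

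Ahr and Cd200r1 were the members furthest above Klrb1c. Ahr counts were 46.5, 38.4 and 75.2% of the Klrb1c counts in CD36+ NK and 6.71, 8.04 and 7.02% in CD36- NK, with a log2 fold change of 2.88 ± 0.26 (SE; edgeR adjusted p = 2.35e-07). Cd200r1 counts were 13.5, 14.8 and 27.5% and 2.08, 3.04 and 2.18%, with a log2 fold change of 2.93 ± 0.32 (SE; edgeR adjusted p = 1.03e-06). The groups did not overlap for either gene, as for 96.6% of all genes on this scale, whose median was 2.49. Both genes are known from macrophages, whose summed genes were higher in CD36+ NK. The part of macrophage RNA in these values was not tested.

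Zfp683, Tnfsf10 and Itga1 came next above Rora. Itga1 counts were 11.7, 9.05 and 11.1% of Klrb1c in CD36+ NK and 3.54, 4.20 and 2.999% in CD36- NK, with a log2 fold change of 1.56 ± 0.26 (SE). Tnfsf10 counts were 17.1, 16.98 and 14.8% and 4.69, 5.90 and 6.13%, with a log2 fold change of 1.55 ± 0.23 (SE). Zfp683 was at 1.38 ± 0.37 (SE), Tmem176a at 2.23 ± 0.30 and Tmem176b at 2.17 ± 0.29. All of these were called, as were 97.3% of all genes, and all lay below the median of all genes, 2.49. Zfp683 was not called without both replicate 1 libraries (0.98).

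The call of Il7r turned on 1 library here too, while Cxcr6 changed in size. Il7r counts were 62.8, 10.9 and 11.7% of Klrb1c in CD36+ NK and 5.79, 8.66 and 7.94% in CD36- NK, with a log2 fold change of 1.93 ± 0.54 (SE; edgeR adjusted p = 0.00377). Without CD36+ NK replicate 1 this was 0.60 ± 0.30 (edgeR adjusted p = 0.0521) and the call was lost. Cxcr6 counts were 11.7, 4.31 and 1.81% and 1.30, 1.30 and 1.32%, a share that differed little among the CD36- NK libraries and widely among the CD36+ NK libraries. Its log2 fold change was 2.17 ± 0.51 (SE; edgeR adjusted p = 0.00105). Without CD36+ NK replicate 1 it was 1.25 (edgeR adjusted p = 0.00413), and it was called under all 12 alternatives on this scale. Il7r and Cxcr6 both lay below the median of all genes on this scale, 2.49.

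By library, the difference between log2(CPM + 2) of a member and of Klrb1c did not overlap between the groups for any of the 10 members, all 10 being higher in CD36+ NK, as 96.6% of all genes were; 0.0407% of all genes were lower without overlap. It was higher in CD36+ NK by 1.098 for Rora and by up to 2.81 for Cd200r1. An exact two-sided permutation test gave p = 0.1 for each, which is the smallest that 3 libraries against 3 can give.

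Levels can be compared between genes per length, in the authors' FPKM. In CD36- NK, Tmem176b was highest at 12.1 ± 4.05 FPKM (SD, n = 3), followed by Tmem176a at 7.47 ± 2.12, Il7r at 7.02 ± 1.30, Zfp683 at 5.62 ± 0.67, Ahr at 5.47 ± 0.30 and Tnfsf10 at 4.84 ± 0.75 FPKM. Each of these 6 overlapped its neighbour in the order. Cd200r1 came below them without overlap at 2.70 ± 0.42 FPKM, then Cxcr6 at 1.70 ± 0.12, Rora at 1.46 ± 0.36 and Itga1 at 0.839 ± 0.090 FPKM, where Cxcr6 and Rora overlapped. Klrb1c was at 101.5 ± 6.20 FPKM, far above all 10.

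In CD36+ NK the order differed and every member overlapped its neighbour. Tmem176b was again highest at 9.69 ± 1.84 FPKM (SD, n = 3), followed by Ahr at 6.88 ± 1.46 and Tmem176a at 6.15 ± 1.65 FPKM. Il7r was at 4.65 ± 4.72 FPKM and Cd200r1 at 3.57 ± 1.04 FPKM. Zfp683 was at 2.66 ± 1.33, Tnfsf10 at 2.53 ± 0.58, Cxcr6 at 1.37 ± 1.12, Rora at 0.481 ± 0.141 and Itga1 at 0.437 ± 0.038 FPKM. Klrb1c was at 17.98 ± 3.11 FPKM.

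Genes whose pattern over the 6 libraries was most like that of each member were taken by the root mean square difference of centred log2(CPM + 2), among genes with a mean of at least 10 CPM. For Il7r these were Lef1 (0.257), Lat (0.262) and Tcf7 (0.329), of which Lef1 is in the T cell list. For Tmem176a the nearest was Tmem176b (0.102), then S100a4 and Lmf2. For Tmem176b they were S100a4 (0.0877), Cd209a, which is in the dendritic cell list, and Tmem176a. For Rora they were Klf12 (0.150), Pald1 and Ugcg, and for Zfp683 Itga6 (0.160), Gimap3 and S1pr4. Itga1 was nearest to 4833403J16Rik (0.0755), Lfng and Stx3, Tnfsf10 to Gimap8 (0.0742), Heca and Stk26, Cd200r1 to Usp12 (0.0408), Tmx1 and Sgcb, Ahr to Acsl3 (0.0489), Cd82 and Col11a2, and Cxcr6 to Svbp (0.196), a gene with no symbol, and Ikzf2. With 6 libraries and many genes, a small distance is a description.

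Of 19 ligands, partners and targets of the members, 14 could be tested. Of these, 1 was called higher and 1 lower, against 2.98% of all genes in each direction. Cxcl16, the ligand of CXCR6, was at 13.9, 17.5 and 14.9 CPM in CD36+ NK and at 4.92, 8.31 and 5.96 CPM in CD36- NK, with a log2 fold change of 1.27 ± 0.22 (SE; edgeR adjusted p = 0.0162). Myeloid and endothelial cells make this chemokine, and its libraries did not overlap. Jak1, the kinase on the interleukin-7 receptor chain, was lower by a log2 fold change of -1.03 ± 0.12 (SE; edgeR adjusted p = 0.00392), and Il2rg, the common chain paired with it, was at -0.49 (edgeR adjusted p = 0.0275) under the fold threshold. Itgb1, the chain that pairs with Itga1, was at -0.49 (edgeR adjusted p = 0.057). The partner Arnt and the targets Ahrr and Tiparp of the aryl hydrocarbon receptor were at -0.07, 1.01 and 0.30 and did not pass.

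Among 15 other genes of the resident program, 4 were called lower and 0 higher, against 2.98% of all genes in each direction. The median of the list was -0.47 on the log2 scale. The called genes were Klrc1 at -2.31, an inhibitory receptor chain, Cd160 at -2.12, Xcl1 at -1.87, a chemokine for dendritic cells, and Chn2 at -1.098. The 4 with estimates above 0 were Inpp4b at 0.63, Sdc4 at 0.42, Il21r at 0.24 and Ltb at 0.22. The 15 conventional NK genes had a median of -1.08, with 8 called lower and 0 higher. The 2 with estimates above 0 were S1pr1 at 0.58 (edgeR adjusted p = 0.0175) and Cx3cr1 at 0.51 (edgeR adjusted p = 0.367). Zeb2 at -0.08 and Klf2 at -0.20 lay near 0. Klra4 was at -2.62 and Klra9 at -2.57, both of a family of near-identical receptor genes whose reads may be shared. Eomes, the factor of conventional NK cells, was at -2.58 ± 0.15 (SE; edgeR adjusted p = 0.00043), with 36.3, 32.2 and 37.2 CPM in CD36+ NK and 200, 182 and 251 CPM in CD36- NK. The 14 shared genes had a median of -2.37 and were all called lower, among them Gzma at -2.57 and Prf1 at -2.51, which encode granule proteins. The members' median of -0.44 was nearer to that of the other resident genes than to those of the conventional and shared lists. Estimates ran from -1.56 to 0.45 in the members and from -2.31 to 0.63 in the other resident list. Those of the conventional list ran from -2.72 to 0.58, so these lists overlapped widely. The difference between lists was not tested. Relative to Klrb1c, 12 of 15 other resident genes, 8 of 15 conventional genes and 0 of 13 shared genes were called higher, shares that all lie below the 97.3% of all genes on this scale.

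**Figure D4:**
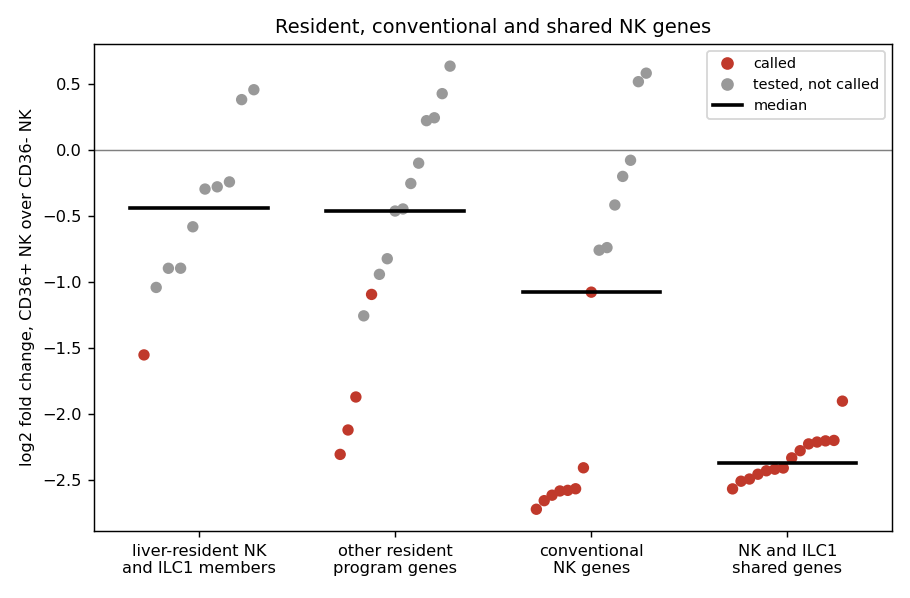
Log2 fold change, CD36+ NK over CD36- NK (vertical axis), of each tested gene in 4 lists, red where called, with a black line at the list's median. The medians are -0.44 for the members, -0.47 for other resident genes, -1.08 for conventional NK genes and -2.37 for genes shared by NK cells and ILC1.

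Several members are also known from other innate lymphoid cells, whose cytokine genes were at or near 0. Of the ILC3 list, Il22 and Il17a had 0 counts in all 6 libraries, which allows up to 3 counts in a library. Il5 and Il13 of the ILC2 list had at most 2 counts in a library. Gata3, which ILC2, T cells and NK cells share, was lower in CD36+ NK with a log2 fold change of -2.27 (edgeR adjusted p = 0.00643), and so was Kit of the ILC3 list at -1.15 (edgeR adjusted p = 0.0191). The other tested genes of these lists did not pass, with Hpgds highest in the ILC2 list at 2.01 (edgeR adjusted p = 0.0548) and Il1r1 in the ILC3 list at 1.5003 (edgeR adjusted p = 0.108). The summed level of the ILC2 list ran from 49.3 to 90.4 CPM in CD36+ NK and from 45.7 to 64.8 CPM in CD36- NK, and that of the ILC3 list from 48.1 to 68.2 CPM and from 75.4 to 97.0 CPM. In the macrophage list all 8 tested genes had estimates above 0, and Marco at 3.50, Csf1r at 1.89 and Adgre1 at 2.33 were called higher. In the T cell list Cd4 and Cd8a were called higher and Trbc1, at -2.002, lower, of 12 tested. In the B cell list 0 of 8 were called, with Ighm at 0.65 and Cd79a at 0.49. The dendritic cell list had 3 genes called higher (Snx22, Xcr1, Clec9a) and 1 lower (Itgax) of 8, against 5.96% of all genes in either direction. In the monocyte list 1 was called higher (Cd14) and 1 lower (Ccr2) of 8, and in the plasmacytoid dendritic cell list 1 lower of 6. In the stellate cell list 1 was called higher of 2 and in the endothelial list 0 of 4. The summed endothelial genes ran from 213 to 307 CPM in CD36+ NK and from 154 to 170 CPM in CD36- NK. Those of the stellate list ran from 6.92 to 9.08 CPM and from 2.54 to 6.23 CPM. No hepatocyte gene had enough counts to be tested.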

How the data were processed

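The authors filtered reads with Seqtk, aligned them by HISAT2 2.0.4 and used StringTie to count fragments for each gene; the deposited counts are not normalized. The submitters' processing notes name a rat genome build, mRatBN7.2, while the table lists mouse Ensembl genes, so the build is not clear and coordinates are the table's own. The authors also deposited FPKM values, counts scaled by gene length and depth, which served only to compare levels between genes. The lines of 2 genes were broken and were rejoined. Library totals ran from 10292480 to 13787189 counts.

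Genes were kept by filterByExpr with a minimum count of 10, libraries were scaled by TMM, and groups were compared with the quasi-likelihood test of edgeR 4.0.16 in R 4.3.3 without a block. A call needed both an adjusted p under 0.05 and more than a 2-fold change, as in the paper. The standard error is the size of the log2 fold change over the root of the F statistic, and 95% intervals use the test's degrees of freedom. A second fit took each library's Klrb1c count as its size; these sizes were treated as free of error. No library repeated another: pairs within a group had chi-square values per degree of freedom between 14.8 and 29.2.

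The members and lists were chosen with earlier results of these data known. Named genes are the members, Klrb1c and Cd36, in each other list the 3 called genes of lowest p in each direction, highly expressed genes of the marker lists, and the 3 genes most like each member; any further gene was picked with its values in view. Alternatives were DESeq2 1.42.0, other scalings and filters, no fold threshold, a replicate block, other NK genes as the reference, each library left out in turn and, added after the data were seen, both replicate 1 libraries left out and a block by the form of the library names.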

Additional observations from a re-analysis of the deposited data

How the results depend on the processing

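Without the fold threshold, 3 members were called lower instead of 1. Leaving out 1 library in turn gave from 0 to 2 members called lower: 2 without CD36+ NK replicate 1 (Rora and Il7r) or replicate 2 (Rora and Tnfsf10), and 0 where replicate 3 of CD36+ NK, or replicate 1 or 3 of CD36- NK, was left out, since Rora then missed the adjusted p. No member was called higher under any alternative run. Relative to Klrb1c, from 8 to 10 of 10 members were called higher and 0 lower. The log2 fold change of Cxcr6 ran from -1.096 without CD36+ NK replicate 1 to 0.15 without CD36+ NK replicate 3, where it reversed; the cause was not tested. The numbers in the titles are not known to pair the samples: the deviations of same-numbered libraries correlated at 0.37, 0.09 and -0.09 across genes. Between libraries of unlike number, the correlations ran from -0.30 to 0.29. The library names number some samples otherwise than the titles, and a block by those numbers was not run. With the replicate block 1 member, Rora, was called lower at -1.57 (edgeR adjusted p = 0.0433), and 9 were called higher relative to Klrb1c. Other scalings, both filters and DESeq2 gave the same counts of calls. Depth limits Cxcr6 and Zfp683 most, with 17 and 21 counts in their lowest library.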
